A study of Sus scrofa with 6 samples.

Results

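Circular RNAs (circRNAs) of TIAM1 in the boar testis were described at 2 ages. A circRNA is made when the splicing machinery joins the 3′ end of an exon back to the 5′ end of the same exon or of an exon upstream of it, and a read that crosses this junction is called a back-splice read. The members were all circRNAs whose host gene is given as TIAM1, which were 27 of the 2552 exonic circRNAs and of the 4350 circRNAs of all kinds in the table. TIAM1 was chosen by the number of its circRNAs in these same libraries, so that number is a description and carries no test. It had no intronic circRNA.

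TIAM1 encodes a guanine nucleotide exchange factor, an enzyme that switches on the small GTPase RAC1. RAC1 in turn remodels the actin cytoskeleton, and TIAM1 is known for its part at cell-cell contacts and in cell polarity, where it works with PARD3 and atypical protein kinase C. In the testis, Sertoli cells rely on RAC1 for their polarity and for the junctions that hold the germ cells. A circRNA is counted apart from the messenger RNA of its host, so none of the values below is a level of TIAM1 mRNA or protein.

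The tissue was whole testis of Landrace boars with no treatment named, from 3 piglets at postnatal day 30 (Piglet-D30) and 3 sexually mature boars at day 210 (Adult-D210), with 1 testis per boar and 1 library per testis. Each replicate is therefore a separate animal. Total RNA had been depleted of ribosomal RNA and digested with RNase R, an exonuclease that removes linear RNA and leaves circles. The libraries held 37364412 to 49179118 mapped reads and 12701 to 33091 back-splice reads in the table. Because the RNA came from a whole organ whose cell make-up changes as it matures, fewer cells of a type and less circRNA per cell cannot be told apart.

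A limit of the table touches most of the comparisons between the ages. Piglet-D30 replicate 1 held a read of each of the 2552 exonic circRNAs and also had the most back-splice reads, and any other library held reads of 1004 to 1247 of them. TIAM1 circRNAs without a read in that piglet are thus not analysed here, and these could include circRNAs made only in Adult-D210. Values are therefore also given without Piglet-D30 replicate 1. Host genes that mark testis cells were rare among the hosts: 1 of 10 germ cell genes (MOV10L1), 1 of 6 Sertoli cell genes (GATA4) and 2 of 6 Leydig cell genes (CYP17A1 and STAR) hosted a circRNA, all of them intronic, so the table gives no check of the tissue by its defining markers.

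The 27 circRNAs lay on the minus strand of chromosome 13 of the Sscrofa10.2 assembly, between positions 205178600 and 205288868, a stretch of 110269 nt. Their exon boundaries laid out 16 blocks. The exon numbers listed for the circRNAs divided these into 21 exons, with 12 of the blocks being single exons. The exons are numbered here from 1 to 21 in the order of transcription within this stretch. Exon 1 here is not the first exon of the gene, since an intron of 18757 nt lies upstream of it. Because the map was built with the listed exon numbers, their match to it in 27 of 27 is not a check of the map. The circRNAs were assigned to 2 Ensembl transcripts, 19 with 497 reads to ENSSSCT00000013166 and 8 with 118 reads to ENSSSCT00000025130. Back-splicing joined 14 different 3′ edges (the last exon of a circle) to 10 different 5′ edges (the first exon of a circle). Of the 83 combinations that these edges allow, 27 were seen, so the edges were reused in some combinations and not in others.

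TIAM1 circles had medians above those of all exonic circRNAs in exon number, genomic span and length of the neighbouring introns. They held 1 to 11 exons with a median of 5, against a median of 4 over all exonic circRNAs, and spanned 225 to 66816 nt of the genome with a median of 14782 nt, against 8725 nt. The introns next to their edges had a median length of 7299 nt, against 6013 nt over the 2515 exonic circRNAs with both neighbouring introns listed. These are descriptions of the members and were not tested.

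**Figure D1:**
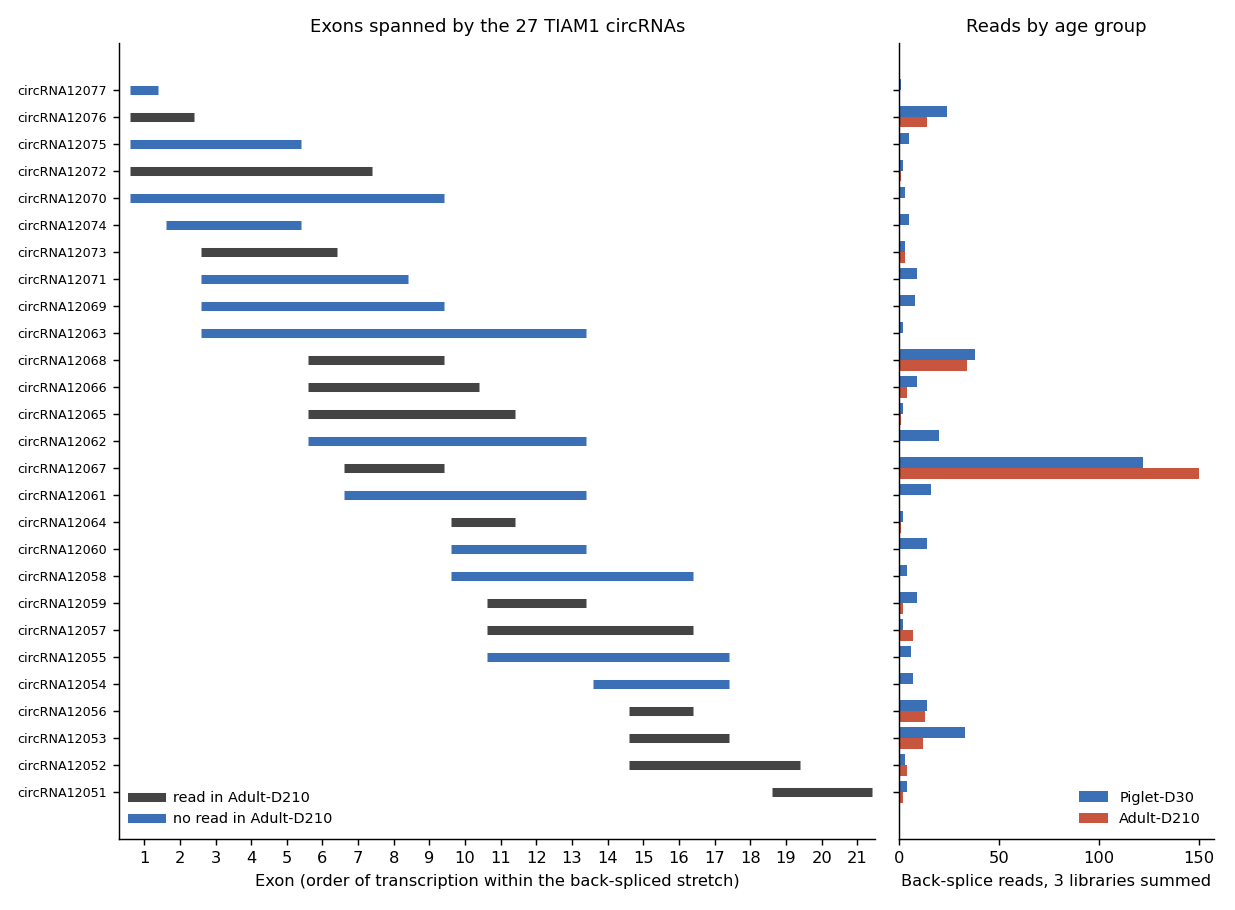
Exons spanned by each of the 27 TIAM1 circRNAs (left; x axis, exons 1 to 21 in the order of transcription; 1 bar per circRNA, grey where at least 1 Adult-D210 read was found and blue where none was) and their back-splice reads summed over the 3 libraries of each age (right; linear axis from 0). circRNA12067, which holds exons 7 to 9, had the longest bars at both ages, and 13 circRNAs had no Adult-D210 read.

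The 27 circRNAs held 615 back-splice reads in all, 0.537% of the 114444 exonic reads. Only 2 of the 659 hosts of exonic circRNAs had more circRNAs, which is the number by which TIAM1 was chosen, and 44 hosts had more reads. The reads were unevenly spread. 1 circRNA held 272 of them (44.2%), 10 circRNAs reached at least 10 reads over the 6 libraries and could be tested, and the other 17 held 1 to 9 reads each, 87 together (14.1%). Of these 17, 5 were seen in Piglet-D30 replicate 1 alone.

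The leading circRNA was circRNA12067 (chr13:205241764-205256332), a circle of exons 7, 8 and 9 with 397 nt of exon sequence. Downstream of exon 9 lies an intron of 18137 nt and upstream of exon 7 an intron of 7528 nt. The 3 piglets gave 60, 29 and 33 reads of it and the 3 adults 84, 34 and 32. Its level in SRPBM, which is back-splice reads scaled to 1000000000 mapped bases, was 6.73 ± 3.45 in Piglet-D30 and 7.12 ± 3.75 in Adult-D210 (SD, n = 3 boars each). The groups overlapped, with 1 boar of each age well above its 2 peers. In edgeR's quasi-likelihood test its log2 fold change (Adult-D210 over Piglet-D30, as in all that follow) was 0.59 (SE 0.36, Benjamini-Hochberg adjusted p = 0.319), so no difference in level was detected. The log2 fold change was 0.10 on mapped reads and 0.29 without Adult-D210 replicate 1.

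The second circRNA, circRNA12068 (chr13:205241764-205263965), shares the 3′ edge of the leader and adds exon 6, which gives 502 nt of exon sequence. Its reads numbered 20, 5 and 13 in the piglets against 15, 11 and 8 in the adults, and its SRPBM was 2.11 ± 1.41 and 1.65 ± 0.492 (SD, n = 3). The log2 fold change was 0.19 (SE 0.58, adjusted p = 0.863 in edgeR's test). Both abundant circles of exon 9 were therefore read in every boar at both ages, and 4 of the 27 circRNAs in all were.

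The other members read in every boar were circRNA12076 and circRNA12056. circRNA12076 joins exons 1 and 2 (411 nt) and had 16, 4 and 4 piglet reads and 3, 4 and 7 adult reads. circRNA12056 joins exons 15 and 16 and had 9, 1 and 4 reads against 9, 1 and 3. Their log2 fold changes were -0.36 (SE 0.80) and 0.20 (SE 0.92), and neither passed edgeR's test (adjusted p = 0.813 and 0.911). The ages overlapped in both.

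A set of circRNAs that end at exon 13 was read almost wholly in piglets. circRNA12060 (exons 10 to 13) had 6, 4 and 4 reads in Piglet-D30, circRNA12061 (exons 7 to 13) had 13, 3 and 0, and circRNA12062 (exons 6 to 13) had 16, 2 and 2, and the 3 had no read in any Adult-D210 library, as was the case for 8.95% of all tested circRNAs. At 3 reads per library, the limit that a count of 0 allows in Adult-D210 is 0.407 to 0.494 SRPBM, which puts their mean in Piglet-D30 at least 1.75-fold, 2.12-fold and 2.65-fold higher. Without Piglet-D30 replicate 1 the bound was 1.40-fold for circRNA12060, and the other pair fell below the limit, so no fold is given for them. The unadjusted p was 0.0167, 0.0324 and 0.0159 and the adjusted p 0.121, 0.160 and 0.115 (edgeR's quasi-likelihood test), so none of the 3 was called.

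The remaining tested members were circRNA12053 (exons 15 to 17; 25, 1 and 7 reads against 9, 3 and 0), circRNA12066 (exons 6 to 10; 4, 4 and 1 against 0, 4 and 0) and circRNA12059 (exons 11 to 13; 6, 0 and 3 against 0, 2 and 0). Their log2 fold changes were -1.09 (SE 0.94), -0.77 (SE 1.40) and -1.65 (SE 1.60). The latter pair rested on single adults: without Adult-D210 replicate 2, which held all their adult reads, the fitted values were -4.55 and -4.54, and without Adult-D210 replicate 1 that of circRNA12066 was -0.017. None was called, and in each the libraries of the ages overlapped.

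In total, 0 of the 10 tested TIAM1 circRNAs were called by edgeR (a change of at least 1 on the log2 scale whose adjusted p lay below 0.05), where 8.28% of all 1341 tested circRNAs were (111, with 46 or 3.43% higher and 65 or 4.85% lower in Adult-D210). edgeR's exact test also called 0 of the 10. DESeq2 gave an adjusted p for 5 of them and called 0, and gave none for the other 5, among them the 3 without an adult read. At an unadjusted p under 0.05 there were 3, against 24.2% of all tested that also reached the fold limit. The median log2 fold change of the 10 was -0.93, beside -0.42 over all 1341. With circRNAs at 0 in a group set to their bound these medians were -0.79 and -0.40. The medians were -0.27 and -0.22 when Piglet-D30 replicate 1 was dropped from the fit only. When its reads were not counted towards the read limit either, 5 members remained, all positive, at 0.53 beside -0.051. At a limit of 20 reads, 6 members had a median of 0.018 beside -0.21. With any other single library dropped the members stayed lower (-2.78 to -0.76, beside -0.49 to -0.43). The lower median thus depended on Piglet-D30 replicate 1 and on the read limit. On the SRPBM scale every Piglet-D30 library lay above every Adult-D210 library for 2 of the 10 (circRNA12060 and circRNA12062), beside 23.5% of all tested, and the opposite held for 0 of the 10, beside 3.73%. Among only 10 members these counts lay near the shares of all tested circRNAs, so none is read as a trait of TIAM1. The 3 at an unadjusted p under 0.05 (circRNA12060, circRNA12061 and circRNA12062) reached the read limit through piglet reads alone.

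**Figure D2:**
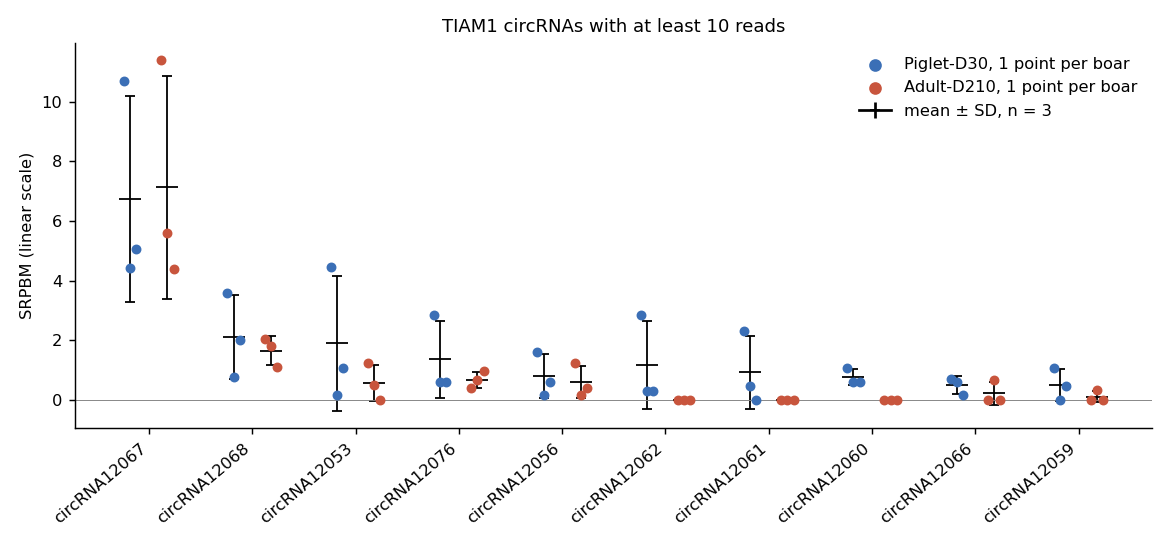
Level of the 10 tested TIAM1 circRNAs in SRPBM (y axis, linear), with 1 point per boar, Piglet-D30 in blue and Adult-D210 in red, and bars for the mean ± SD (n = 3). circRNA12067 lay above the other members at both ages with overlapping groups, and circRNA12060, circRNA12061 and circRNA12062 were at 0 in the 3 Adult-D210 boars.

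Summed over all its circRNAs, TIAM1 did not differ between the ages by more than the spread of the boars. The piglets had 226, 64 and 77 reads and the adults 126, 63 and 59, which is 6.05, 1.47 and 1.77 RPM (reads scaled to 1000000 mapped reads) against 2.56, 1.56 and 1.21. A single piglet was far above the others, the groups overlapped, and the exact two-sided permutation test gave p = 0.6 (mean difference Adult-D210 minus Piglet-D30 -1.32 RPM). Without Piglet-D30 replicate 1 the mean difference was 0.156 RPM, of the opposite sign. In edgeR's test of reads summed per host the log2 fold change was 0.10 (SE 0.31, adjusted p = 0.855), where 22.0% of 478 hosts were called and the median over hosts was -0.32. With mapped reads as the library size it was -0.76, with a median over hosts of -1.08, so TIAM1 lay 0.42 and 0.32 above the median of all hosts on the log2 scale.

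The make-up of the TIAM1 reads did separate the 6 boars by age. The leading circRNA held 26.5%, 45.3% and 42.9% of the TIAM1 reads in the 3 piglets and 66.7%, 54.0% and 54.2% in the 3 adults. The 95% exact (Clopper-Pearson) intervals, which cover counting error only, ran from 20.9 to 32.8%, 32.8 to 58.3% and 31.6 to 54.6% in the piglets and from 57.7 to 74.8%, 40.9 to 66.6% and 40.8 to 67.3% in the adults. Every adult lay above every piglet, but the intervals of piglets 2 and 3 overlapped those of adults 2 and 3. The means were 38.2 ± 10.199% and 58.3 ± 7.26% (SD, n = 3), and the exact two-sided permutation test gave p = 0.1, the smallest that 3 against 3 allows (0.12 adjusted over 6 measures). Such a separation, with adults higher, was seen in 12.1% of 198 hosts with at least 100 reads and at least 2 circRNAs, and with piglets higher in 9.60%, while the median change over these hosts was 0.426 percentage points against 20.1 in TIAM1. Without Piglet-D30 replicate 1 the change was 14.2 points. Since the table leaves out circRNAs without a read in that piglet, the adult shares are shares of the listed circRNAs only.

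**Figure D3:**
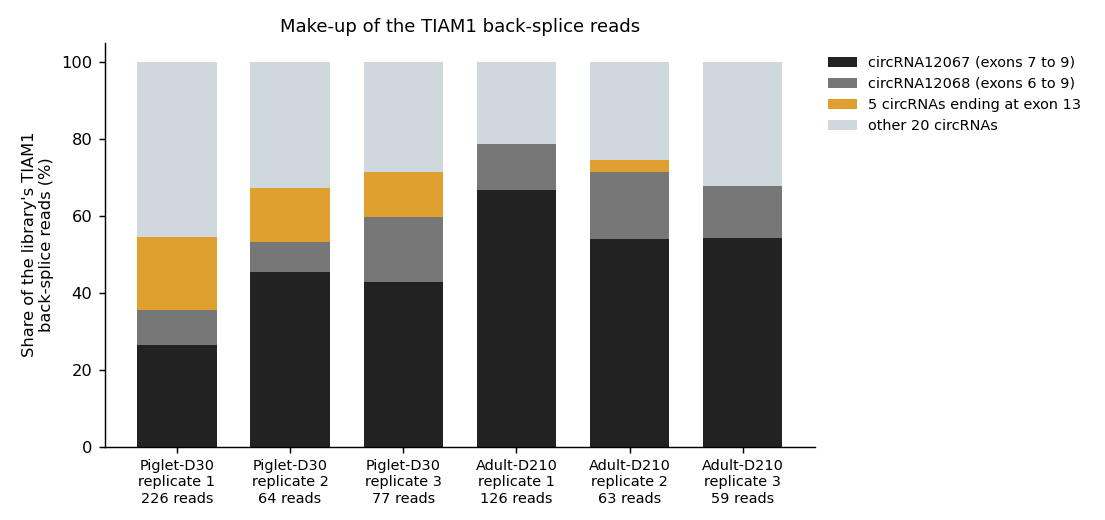
Share of each library's TIAM1 back-splice reads (y axis, percent, from 0) held by circRNA12067, circRNA12068, the 5 circRNAs that end at exon 13, and the other 20, with 1 column per boar and its TIAM1 reads below. The black part made up 26.5 to 45.3% in Piglet-D30 and 54.0 to 66.7% in Adult-D210, and the orange part 11.7 to 19.0% in Piglet-D30 and 0 to 3.17% in Adult-D210.

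The same separation was seen at the edges, whose values are not independent of the leading circRNA. How often the edge shares of other hosts separate the ages was not computed. Of the 3′ edges, that of exon 9 (chr13 position 205241764) was used by 4 circRNAs with 355 reads, 57.7% of all. Its share was 40.3%, 53.1% and 59.7% in the piglets and 78.6%, 71.4% and 67.8% in the adults, without overlap (exact permutation p = 0.1, adjusted p = 0.12). Of the 5′ edges, that of exon 7 (position 205256332) was used by 2 circRNAs with 288 reads, and its share was 32.3%, 50.0% and 42.9% against 66.7%, 54.0% and 54.2%, again without overlap and at p = 0.1 in the exact permutation test. The next 5′ edge, that of exon 6 with 108 reads in 4 circRNAs, held 18.9 ± 1.81% in Piglet-D30 and 16.7 ± 6.18% in Adult-D210 (SD, n = 3), with overlapping groups.

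The 3′ edge of exon 13 (position 205210925) held a larger share in the piglets. Its 5 circRNAs, with 5′ edges at exons 3, 6, 7, 10 and 11, had 43, 9 and 9 reads in the piglets against 0, 2 and 0 in the adults, which is 19.0%, 14.1% and 11.7% of the TIAM1 reads against 0%, 3.17% and 0%. A count of 0 in 126 and in 59 reads allows a share of up to 2.38% and 5.08%. Their summed level was 3.48 ± 3.63 SRPBM in the piglets and 0.110 ± 0.190 SRPBM in the adults (SD, n = 3), with every piglet above every adult. The part of all edges that separate the ages in this way was not computed.

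When reads were summed per 3′ edge over all hosts, a fit that was added after the values were seen, this edge was called lower in Adult-D210 by edgeR's quasi-likelihood test (log2 fold change -4.15, SE 1.09, adjusted p = 0.0175), and it was the single edge called among the 7 TIAM1 3′ edges with at least 10 reads, where 10.9% of 1032 3′ edges were called and 6.40% were called lower. The call held on mapped reads (adjusted p = 0.0266) and in DESeq2 (0.0231). It was lost without Piglet-D30 replicate 1 (0.148, log2 fold change -3.35) and without Adult-D210 replicate 1 (0.0951). Of the 7 tested 5′ edges 0 were called by edgeR, where 9.86% of 943 were, and 1 had an unadjusted p under 0.05, that of exon 10. That edge had 12, 4 and 4 piglet reads against 0, 1 and 0 adult reads (log2 fold change -3.49, SE 1.44, adjusted p = 0.135), and it too reached the read limit through the piglets.

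Read along the gene, these differences fell in neighbouring exons. Exons 7, 8 and 9 lay inside the circles of most reads at both ages: circRNAs that span exon 8 held 64.7 ± 4.66% of the TIAM1 reads in the piglets and 75.0 ± 6.27% in the adults (SD, n = 3). For exon 10, across the 18137 nt intron, the shares were 21.7%, 20.3% and 9.09% in the piglets and 0.794%, 7.94% and 0% in the adults. The libraries of the ages did not overlap for 10 of the 21 exons: exons 7 to 9 were higher in all adults, and exons 3 to 5 and 10 to 13 in all piglets. The exons of a circle move together and shares sum within a library, so these are not separate observations. How often the exons of other hosts separate in this way was not computed, so the count cannot be called unusual. Exons 15 and 16, held by a group of circRNAs towards the 3′ end, had shares of 16.3 ± 5.12% and 13.2 ± 4.52% with overlapping groups.

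**Figure D4:**
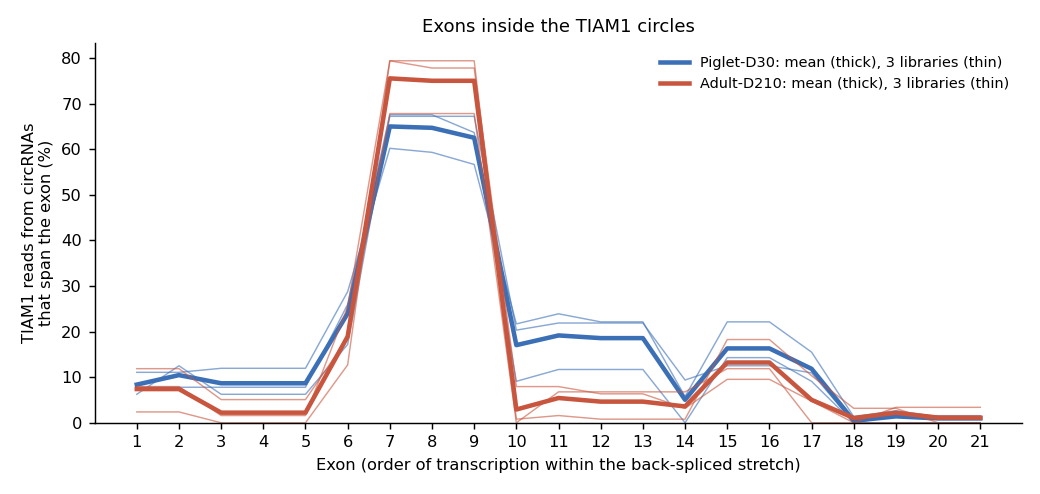
Share of a library's TIAM1 back-splice reads that come from circRNAs spanning each exon (y axis, percent; x axis, exons in the order of transcription), with thin lines for the 3 boars of each age and a thick line for their mean. At exon 8 the mean was 64.7% in Piglet-D30 and 75.0% in Adult-D210, and at exon 10 it was 17.0% and 2.91%.

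The largest TIAM1 circles were read mostly in the piglets, in a comparison of 3 against 3 that cannot reach an exact p below 0.1. The read-weighted exon number, the mean number of exons in the circRNA that each TIAM1 read belongs to, was 4.25, 3.92 and 3.45 in the piglets and 3.13, 3.37 and 3.22 in the adults. The groups did not overlap (3.87 ± 0.399 against 3.24 ± 0.116, SD, n = 3, exact permutation p = 0.1, adjusted p = 0.12), as was the case with piglets higher in 11.1% of the 198 hosts. The 8 circRNAs with 7 or more exons had 61 Piglet-D30 reads and 1 Adult-D210 read, and 12 of the piglet reads came from replicates 2 and 3. They held 21.7%, 15.6% and 2.60% of the TIAM1 reads in the piglets and 0%, 1.59% and 0% in the adults, so Piglet-D30 replicate 3 lay close to the adults. The same split over all exonic circRNAs with 7 or more exons was not computed. The 9 circRNAs with 3 or 4 exons, which include the leading pair, had 235 and 203 reads.

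Of the listed TIAM1 circles, more kinds were read in each piglet than in any adult. The number of circRNAs with at least 1 read was 27, 13 and 12 in the piglets and 8, 10 and 7 in the adults, without overlap (exact permutation p = 0.1, adjusted p = 0.12), where piglets were higher without overlap in 8.08% of the 198 hosts. The first number is fixed by the table. At an equal depth of 59 TIAM1 reads the expected numbers were 18.5, 12.7 and 11.4 against 6.71, 9.80 and 7.00. Every piglet still lay above every adult, but circRNAs without a read in Piglet-D30 replicate 1 are not listed. That limit can lower the number of every other library, and equal depth does not undo it. The numbers therefore do not decide whether piglets made more kinds of circle. No Adult-D210 read was found for 13 of the 27 (48.1%), beside 38.9% of all exonic circRNAs, and 8 of these 13 had a read in Piglet-D30 replicate 2 or 3. Conversely, 5 circRNAs had adult reads but none in those 2 piglets.

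Whether the TIAM1 circRNAs changed relative to each other was asked of all hosts with at least 2 tested circRNAs. edgeR's test of usage gave an unadjusted p of 0.00616 and an adjusted p of 0.187 for TIAM1, and 1.51% of 265 hosts were called. The leading circRNA had a relative log2 change of 0.62. The most negative fitted value, -5.41, was that of circRNA12062, followed by circRNA12061 (-5.10) and circRNA12060 (-5.07). None of these circRNAs had an adult read, so the size of these values rests on empty counts and is not read as a fold. With Piglet-D30 replicate 1 left out of both filter and test, 5 TIAM1 circRNAs remained and the adjusted p was 0.992. A shift in usage thus did not pass the test.

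TIAM1 was then set beside the 3 hosts with as many or more exonic circRNAs. The leading circRNA of ENSSSCG00000011340 (43 circRNAs) held 23.7 to 31.4% of that host's reads, less than that of TIAM1 in 6 of 6 libraries (mean difference 20.3 ± 13.5 percentage points, SD, n = 6 libraries; exact paired permutation p = 0.03125, the smallest that 6 libraries allow, 0.0469 adjusted over 3 hosts). The same held for PTPN13 (32 circRNAs, 25.9 ± 18.9 points, 6 of 6 libraries, the same exact p). Its leading circRNA held 0% in Adult-D210 replicate 3 and 19.4 to 38.0% in the rest, so that library widened the difference. For WDFY3, with 27 circRNAs as in TIAM1, the leading share was 38.0 to 61.5%, higher in TIAM1 in 3 of 6 libraries (-2.86 ± 16.6 points, exact paired p = 0.688). TIAM1 reads were thus more concentrated in 1 circle than those of ENSSSCG00000011340 and PTPN13, while no difference from WDFY3 was detected. From Piglet-D30 to Adult-D210 the leading share changed by 20.1 points in TIAM1 and by 1.63, -3.90 and -4.55 points in the 3 hosts. The PTPN13 change rested on the 0% in Adult-D210 replicate 3. Its other adults had 23.3% and 38.0%, beside a piglet mean of 24.3%. The difference between these changes was not tested.

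**Figure D5:**
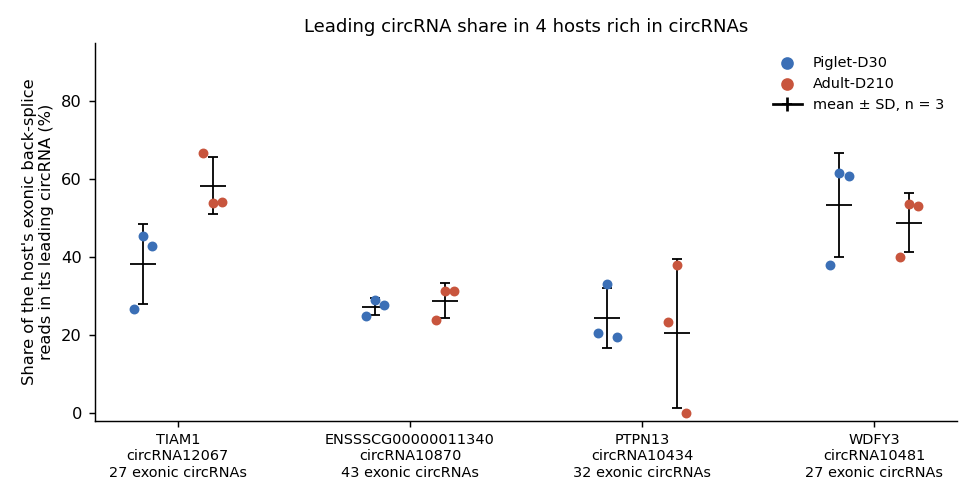
Share of a host's exonic back-splice reads in its leading circRNA (y axis, percent) for TIAM1 and the 3 hosts with as many or more exonic circRNAs, 1 point per boar with mean ± SD (n = 3 per age). The TIAM1 points lay at 26.5 to 45.3% in Piglet-D30 and 54.0 to 66.7% in Adult-D210, and those of ENSSSCG00000011340 between 23.7 and 31.4%.

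Other genes of the RAC1 pathway, taken from a list of 145 exchange factors, GTPases, GTPase-activating proteins, effectors and polarity partners, rarely hosted exonic circRNAs: 11 of the 145 did, TIAM1 among them, and 10 had enough reads for the test. Of the 9 hosts other than TIAM1, 2 were called higher and 1 lower in Adult-D210, beside the 22.0% of all hosts, and 6 were not called. BAIAP2, a RAC1 effector that shapes the actin of membrane protrusions, had 34, 29 and 12 reads in the piglets against 110, 68 and 43 in the adults (log2 fold change 2.13, SE 0.38, adjusted p = 5.52e-05 in edgeR's test). DOCK3, like TIAM1 an activator of RAC1, had 33, 11 and 17 against 58, 33 and 7 reads (1.26, SE 0.46, adjusted p = 0.0436). Both calls were lost with mapped reads as the library size (adjusted p = 0.104 and 0.618 in edgeR's test). The DOCK3 call was also lost in DESeq2 (adjusted p = 0.227), in edgeR's exact test (0.0893), without TMM (0.0660) and when any library but Adult-D210 replicate 3 was left out of the test (0.0649 to 0.335), though it held with Piglet-D30 replicate 1 left out of both filter and test (0.0375).

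ARHGAP24, a GTPase-activating protein that switches RAC1 off, had 49, 22 and 35 reads in the piglets and none in the adults, which is at least 13.3-fold lower against 3 reads per adult library (adjusted p = 3.12e-05 in edgeR's test and 0.00161 on mapped reads). ARHGAP24 reached the read limit through piglet reads alone. Its exonic circRNAs were listed only with a read in Piglet-D30 replicate 1, so ARHGAP24 circRNAs made only in adults would be missed. Among the hosts with at least 100 reads that were not called, the polarity kinase PRKCI, a partner of TIAM1, had 100, 3 and 83 reads against 100, 10 and 57. CDC42BPB, a kinase that binds CDC42, had 205, 129 and 132 against 112, 145 and 87. ARHGEF26, an exchange factor, had 38, 13 and 15 against 9, 16 and 9. The called hosts of the pathway thus moved in either direction, and TIAM1 was not among them.

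The hosts whose summed reads were most like those of TIAM1 across the 6 libraries, among 216 hosts with at least 100 reads, were INTU (Pearson's r = 0.897 of log2 CPM, the counts scaled to 1000000 back-splice reads), ATG7 (0.789), ENSSSCG00000011892 (0.760), SUMF1 (0.755) and EFHB (0.739). INTU had 119, 34 and 34 piglet reads and 56, 36 and 26 adult reads, so the likeness included the high Piglet-D30 replicate 1 and Adult-D210 replicate 1. These are descriptions over 6 libraries that share their depth and scaling, without a test.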

How the data were processed

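Testis RNA of 3 Piglet-D30 and 3 Adult-D210 boars, treated with RNase R, was sequenced as 150 nt read pairs from stranded libraries. The authors trimmed reads with Cutadapt, aligned them with TopHat2 and TopHat-Fusion, called circRNAs with CIRCExplorer2 and deposited, per circRNA and library, raw back-splice counts and SRPBM values (a signal normalised by the authors to mapped reads and read length). The build in the submitters' processing notes is Sscrofa10.2. How the table's circRNAs were selected is not given in the sources used here. The mapped reads per library were recovered from the count and SRPBM columns.

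Members and gene lists were chosen with earlier results of these data known. Features whose counts summed to 10 or more entered the test in edgeR 4.0.16 (R 4.3.3), the quasi-likelihood F test with robust dispersion and TMM factors on back-splice totals, on the whole table, on reads per host and, added after the values were seen, on reads per back-splice edge, with Benjamini-Hochberg adjustment over all features tested. Called were features whose adjusted p lay below 0.05 and whose log2 change was 1 or more in size. Usage was tested with diffSpliceDGE on the older form of that fit. Values per library were compared by exact permutation tests (SciPy 1.17.1). The fits were tested on simulated data. The leading circRNA and edges are those with the most reads over all 6 libraries. Named were the TIAM1 circRNAs with at least 10 reads, the 5 hosts most correlated with TIAM1, the hosts most like it in number of circRNAs, and RAC1 pathway hosts that were called or had at least 100 reads. A host that met this rule is not reported here. Intervals and limits from 3 reads cover counting error only. Libraries of one age were further apart than sampling noise allows (chi-square over degrees of freedom 3.87 to 4.97). Alternatives were no TMM, mapped reads as library size, other read limits, a replicate block, DESeq2 1.42.0, edgeR's exact test and leaving out each library. No TIAM1 sequence is shown, since no sequence of that build was used here.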

Additional observations from a re-analysis of the deposited data

How the results depend on the processing

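No TIAM1 circRNA was called under any of the alternatives run, while the calls over all circRNAs were 33 with a replicate block, 37 to 78 with a library left out, and 111 in the fit reported. The log2 fold change of the summed reads turned to -0.036 without TMM and -0.76 on mapped reads, and ran from -0.050 to 0.46 with a library left out. On mapped reads circRNA12056 (-0.29) and circRNA12068 (-0.33) turned negative, and with Piglet-D30 replicate 1 left out of filter and test circRNA12053 (0.15) and circRNA12076 (0.46) turned positive. With a library left out, circRNA12053 ran from -2.16 to 0.12, circRNA12056 from -0.60 to 0.90, circRNA12067 from 0.29 to 0.80, circRNA12059 from -4.54 to -0.87, circRNA12066 from -4.55 to -0.017, circRNA12068 from -0.13 to 0.50 and circRNA12076 from -0.90 to 0.43. The cause of these reversals was not tested. The edge of exon 13 kept its direction in each alternative (-7.11 to -3.35 with a library left out, adjusted p 0.0273 to 0.148), but its call was lost with a replicate block (-4.14, adjusted p = 0.0889) and with Piglet-D30 replicate 1 left out of filter and test (-3.35, adjusted p = 0.121).

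The block also ended the DOCK3 call (adjusted p = 0.0804). Replicate numbers do not pair the boars: the correlation of deviations between libraries of the same number was 0.051, -0.015 and -0.031. With a library left out, the change ran from -2.13 to 0.156 RPM, from -11.7 to -4.17 circRNAs detected, from 14.2 to 23.6 points for the leading circRNA, from -0.845 to -0.448 exons, from 16.2 to 25.9 points for the leading 3′ edge and from 11.9 to 20.7 points for the leading 5′ edge. The adjusted p of usage ran from 0.198 to 0.474, and was 0.0692 with no filter. The lead of TIAM1 ran from 15.7 to 23.95 points over ENSSSCG00000011340, 20.2 to 29.8 over PTPN13 and -8.77 to 0.129 over WDFY3. With 5 libraries the paired exact test cannot go below 0.0625, so it says nothing about the stability of the first 2. With 7 to 27 TIAM1 circRNAs resting on 59 to 226 reads per library, differences in single circRNAs were detectable only if large.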
